A study of Mus musculus with 30 samples.

Results

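The response of the mouse heart to infarction was compared between days 2 and 4 as a difference of differences. For each gene, the effect of myocardial infarction (MI) at day 4, MI against sham, was set against the same effect at day 2. The comparison used 20 of the 30 libraries of the series, chosen by operation and day: 5 MI libraries and 5 sham libraries of day 4, and 5 MI libraries and 5 sham libraries of day 2. All mice were wild-type C57BL/6J. MI mice had isoflurane anaesthesia, opening of the chest, removal of the pericardium and ligation of a coronary artery. Sham mice had the same operation without the ligation, so that anaesthesia, opening of the chest and the missing pericardium are shared by both arms. The question was which genes gain or lose their response to the infarct between the inflammatory phase and early repair. The labels give neither the part of the heart nor whether animals were pooled. They name the replicates of a group only as separate samples, so a p-value here measures the spread between those samples, which may be technical.

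In the first days after an infarct, neutrophils and then monocytes enter the dying muscle. Monocytes become macrophages, which take up dead cells and break them down in lysosomes. Fibroblasts then divide, turn into matrix-secreting cells and lay down the collagen of the scar, while surviving cardiomyocytes, which normally burn mainly fatty acids in their mitochondria, carry a raised load.

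The 20 libraries held 8491949 to 14070017 counts and 18744 to 20485 detected genes. Values are given as CPM, the count scaled to a common library total, where a gene without a count may hold up to 0.213 to 0.353 CPM, depending on the library. Cardiac muscle markers summed to 28670 to 37084 CPM in MI libraries of day 4, 46885 to 54270 CPM in sham libraries of day 4, 28272 to 33972 CPM in MI libraries of day 2 and 34170 to 44036 CPM in sham libraries of day 2. The day 2 libraries carry another library prefix than the day 4 libraries, so that day and prefix cannot be told apart within an arm. A constant shift of a gene on the log scale cancels within each day. Sham day 4 replicates 2 and 3 held lung transcripts, with lung markers summing to 224 and 560 CPM, and fat transcripts, with adipocyte markers summing to 432 and 1151 CPM. Adipocyte markers summed to 126 to 271 CPM in 4 MI libraries of day 4 and 13.4 CPM in the other (replicate 2), against 35.0 to 66.5 CPM in the other sham libraries of day 4, and to 12.1 to 62.6 CPM in MI and 16.6 to 46.3 CPM in sham libraries of day 2. In bulk RNA, fewer cells of a type and less RNA per cell cannot be told apart.

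Of 15537 genes tested, 390 (2.51%) had a higher MI effect at day 4 than at day 2 and 356 (2.29%) a lower one, together 746 (4.8%), by edgeR's quasi-likelihood test at a Benjamini-Hochberg adjusted p under 0.05. An unadjusted p under 0.05 was reached by 3173 genes (20.4%). The MI effect itself was called for 8040 genes (51.7%; 26.2% higher and 25.5% lower) at day 4 and for 6593 (42.4%; 21.1% higher and 21.3% lower) at day 2. Of the 3015 genes called at day 4 and not at day 2, 370 (12.3%) passed the test of the difference, and of the 1568 genes called at day 2 and not at day 4, 107 (6.82%) did. A difference of at least 2-fold was reached by 146 of the higher and 52 of the lower genes.

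The 746 genes fell into patterns by the MI effects of the 2 days. The effect was gained (called at day 4 alone) in 370 genes, grew in the same direction in 206, was lost (called at day 2 alone) in 107, shrank in 21 and changed sign with a call at both days in 41. The remaining gene was called at neither day. Each MI library was also set against the mean of the sham libraries of its day. These ratios did not overlap between the 5 MI libraries of day 4 and the 5 of day 2 in 373 of the 390 higher and 321 of the 356 lower genes, against 17.0% of all genes tested. The genes were called on the same libraries, so this separation is no independent support for the calls. Spread between sham libraries does not enter the ratios.

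**Figure D1:**
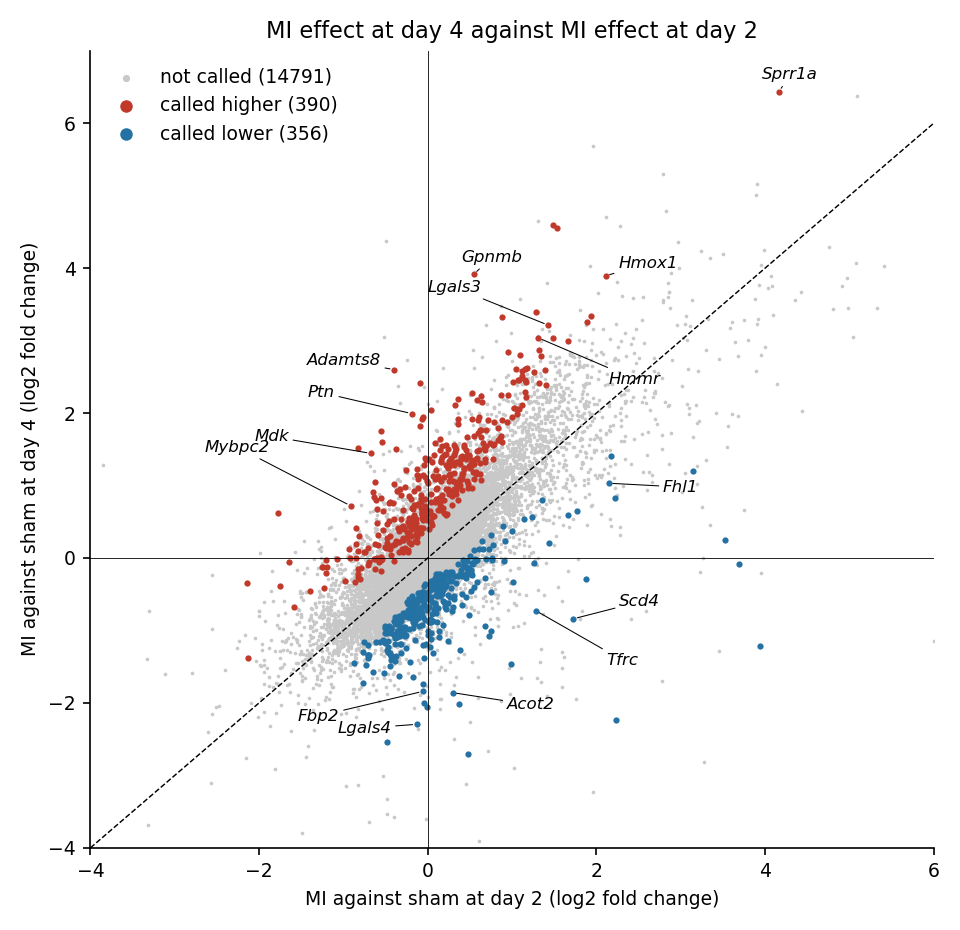
MI effect at day 4 (vertical axis) against MI effect at day 2 (horizontal axis), both as log2 fold change of MI over sham, for each gene tested. Red points are the 390 genes with a higher effect at day 4, blue points the 356 with a lower one and grey points the genes not called, of which 27 lie outside the axes. Points above the diagonal have a higher effect at day 4.

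A difference of differences can come from either arm. Between day 2 and day 4 the change was larger in MI than in sham libraries in 350 of the 390 higher genes and 285 of the 356 lower genes. Over the higher genes the median log2 change from day 2 to day 4 was 0.87 in MI and 0.03 in sham libraries, and over the lower genes -0.60 in MI and 0.08 in sham libraries. The arms moved in opposite directions in 172 higher and 214 lower genes. Over all genes tested the median log2 difference was 0.015, and the median change from day 2 to day 4 was 0.028 in MI and 0.011 in sham libraries. The counts by arm cover only genes called on these same libraries and were not set against all genes tested. Within an arm day and library prefix cannot be told apart, so these changes may hold a shift by prefix, which was not tested.

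**Figure D2:**
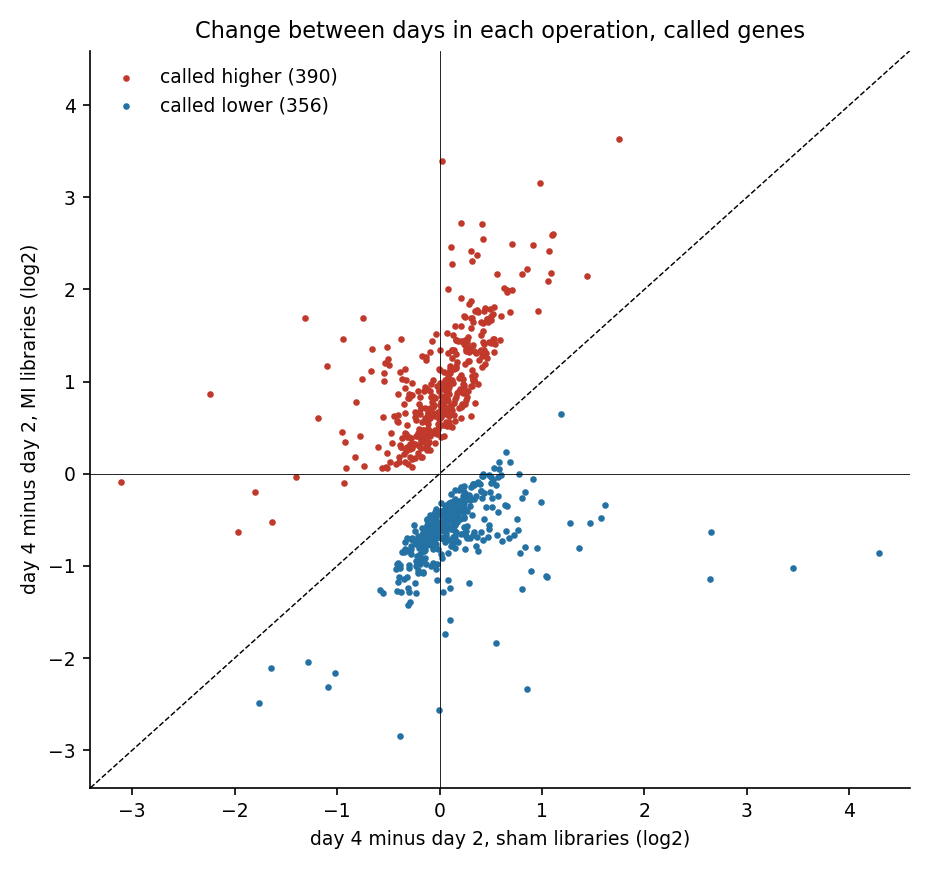
Change from day 2 to day 4 within MI libraries (vertical axis) and within sham libraries (horizontal axis), as log2, for the 746 called genes. Most red (higher) points lie above and most blue (lower) points below the zero line of the MI axis, while the sham values scatter on both sides of zero.

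The genes were described by 37 lists with 825 tested genes, of which 135 (16.4%) were called, 81 higher and 54 lower. Over all genes tested 4.8% were called. The lists were chosen with earlier results of these data known, so a larger share on them is no independent result. Higher calls gathered in lists of macrophage, lysosome, cell division and matrix genes, and lower calls in lists of fatty acid oxidation and other mitochondrial genes. The lists were not tested as sets, and the other 611 called genes stand on none of them.

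**Figure D3:**
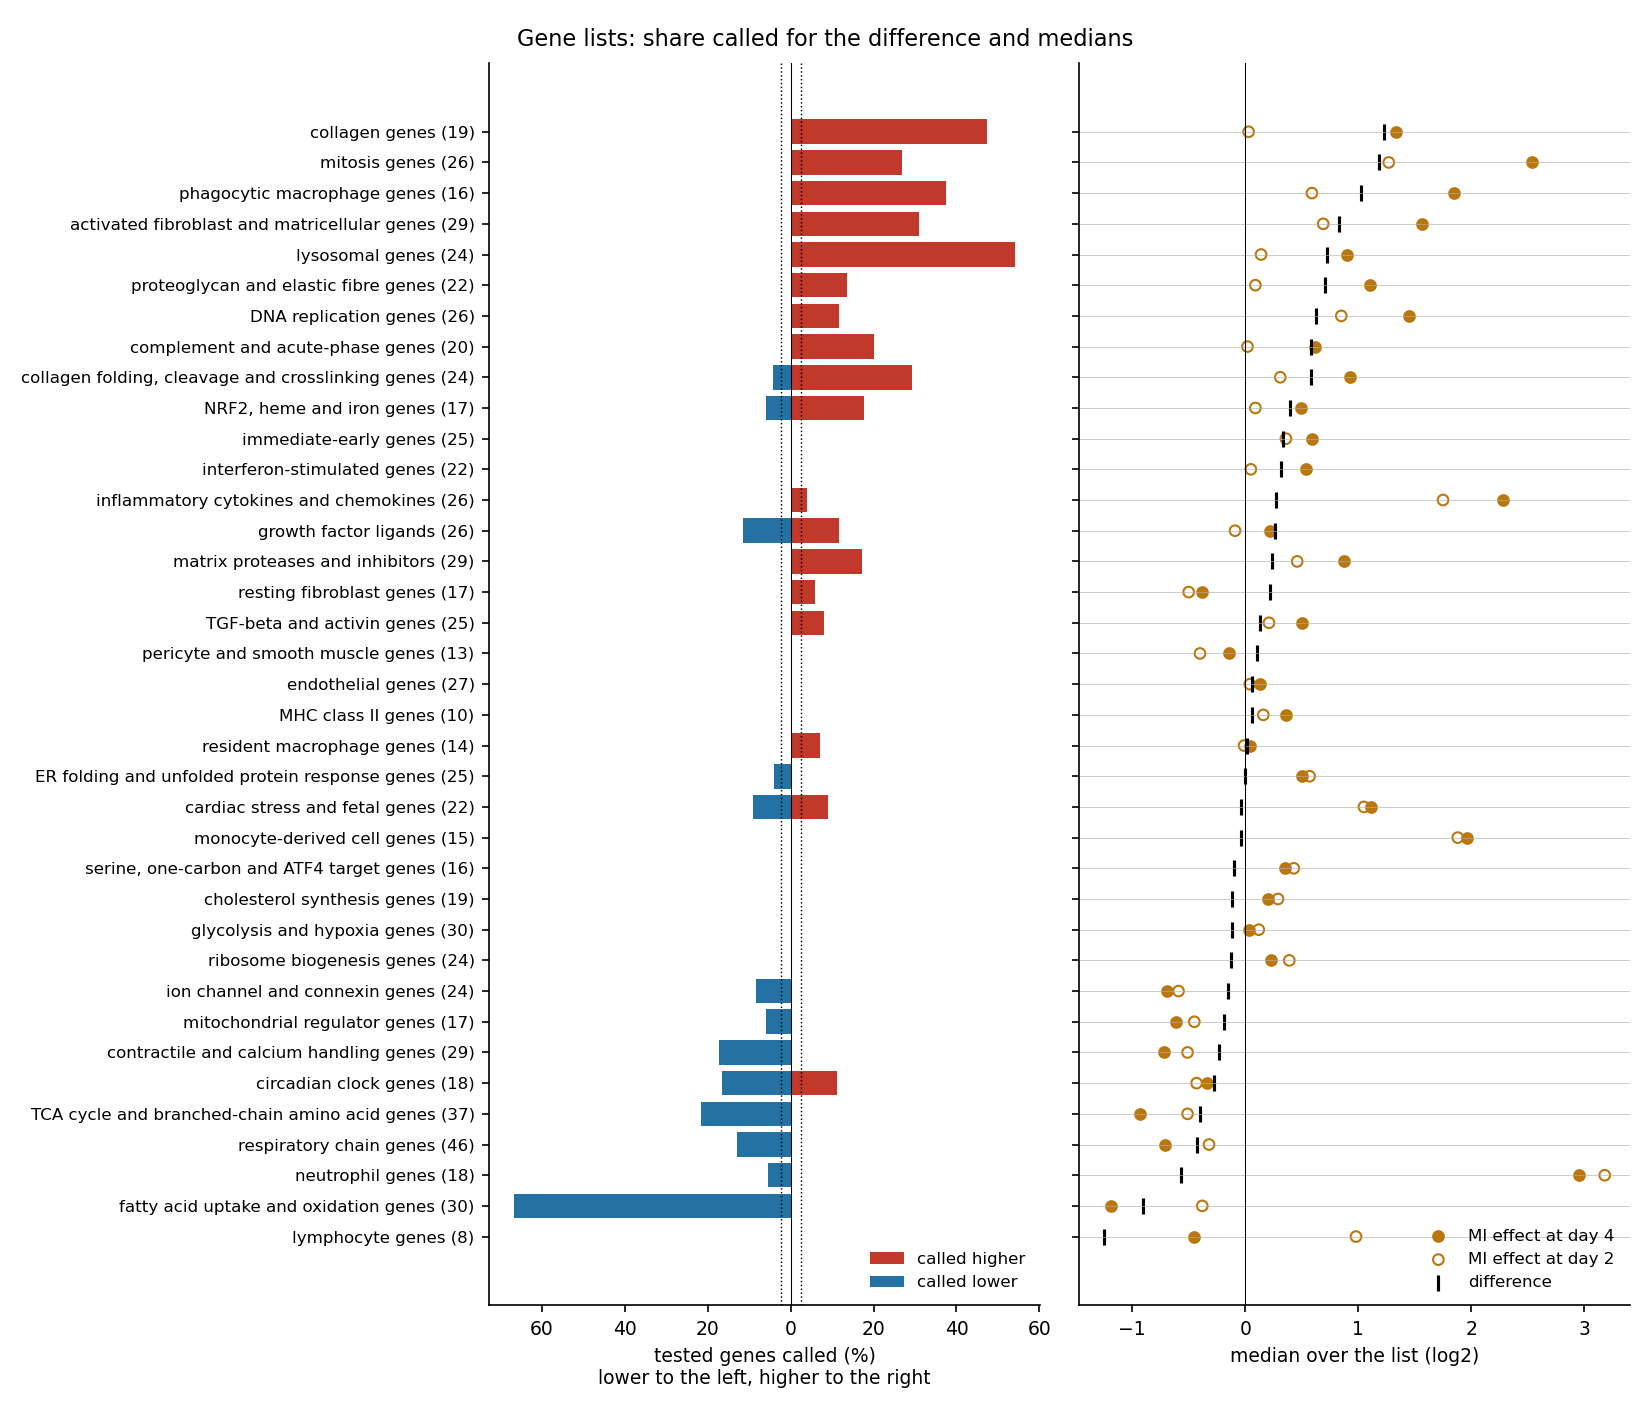
Left, percent of each list's tested genes called higher (bars to the right) or lower (bars to the left) for the difference of the MI effect, with dotted lines at 2.51% and 2.29%, the shares over all genes. Right, list medians of the log2 MI effect at day 4 (filled) and day 2 (open), with the median difference as a tick; collagen and lysosomal genes have a median near 0 at day 2 and above 0.8 at day 4.

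Phagocytic macrophage genes with a called difference all had a higher MI effect at day 4. Of 16 tested, 6 were called higher and none lower, with a median log2 difference of 1.02 and median MI effects of 1.85 at day 4 and 0.59 at day 2. The 6 were Gpnmb, Lgals3, Cd68, the fatty acid binding protein Fabp5, the lipid carrier Apoe and Pld3, a lysosomal protein of the phospholipase D family. Gpnmb, a membrane glycoprotein of phagocytic macrophages (ENSMUSG00000029816, chromosome 6, 49036546 to 49070929 in GRCm38), read 101, 113, 103, 85.1 and 140 CPM in MI libraries of day 4 and 4.98, 6.66, 10.4, 5.03 and 4.77 CPM in sham libraries of day 4. It read 7.2, 23.5, 7.43, 3.55 and 6.61 CPM in MI libraries of day 2 and 7.37, 9.21, 4.53, 5.48 and 3.88 CPM in sham libraries of day 2. Every MI library of day 4 lay far above the other 15, whereas at day 2 MI and sham libraries overlapped and MI replicate 2 alone stood out. The MI effect was 15.1-fold at day 4 and 1.46-fold at day 2, a log2 difference of 3.37 (SE 0.76, edgeR adjusted p = 0.0114).

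Lgals3, the lectin galectin 3, averaged 186 ± 17.4 CPM in MI libraries of day 4, 17.8 ± 7.51 in sham libraries of day 4, 80.4 ± 28.5 in MI libraries of day 2 and 27.5 ± 3.82 in sham libraries of day 2 (± SD, n = 5). Its effect was already present at day 2 and grew (log2 difference 1.79, edgeR adjusted p = 0.00902), as did that of the macrophage scavenger protein Cd68 (1.27, edgeR adjusted p = 0.0149) and of the macrophage membrane protein Ms4a7 (1.70, edgeR adjusted p = 0.00986). On the resident macrophage list 1 of 14 genes was called, against 4.8% of all genes tested. Without the 2 sham libraries holding lung transcripts 3 were. The gene called with all libraries was Fcrls, a receptor that marks resident macrophages and microglia in the mouse. It read 85.7, 73.4, 82.7, 60.4 and 107 CPM in MI libraries of day 4 and 14.8 to 22 CPM in sham libraries of day 4, and in MI libraries of day 2 it read 7.18 to 12.6 CPM in 4 libraries and 34.2 CPM in replicate 2, against 11.2 to 18.5 CPM in sham libraries of day 2. The effect was gained, with a log2 difference of 1.99 (SE 0.35, edgeR adjusted p = 0.0021). MI day 2 replicate 2 was high in several of these genes. Without it, 9 of the 16 phagocytic macrophage genes were called higher, and without the 2 sham libraries holding lung transcripts 7 were.

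Spp1 (osteopontin), a secreted protein of infarct macrophages, read 702, 620, 488, 726 and 689 CPM in MI libraries of day 4, 14.1, 23.5, 22.8, 25.1 and 16.7 CPM in sham libraries of day 4, 314, 655, 269, 145 and 218 CPM in MI libraries of day 2 and 46.8, 59.9, 28.4, 30.1 and 41.4 CPM in sham libraries of day 2. MI and sham libraries were apart at both days. Its log2 difference of 1.96 missed the threshold (SE 0.59, edgeR adjusted p = 0.0545), as did that of the lipid-sensing receptor Trem2 (1.29, SE 0.41, edgeR adjusted p = 0.0678). Without the 2 sham libraries holding lung transcripts Trem2 was called (1.57, edgeR adjusted p = 0.0417).

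Called complement genes were also higher at day 4. The subunits of C1q, which starts the classical complement pathway and is made by macrophages, gained an MI effect. C1qb (ENSMUSG00000036905, chromosome 4, 136880129 to 136886187 in GRCm38) read 343, 297, 309, 326 and 355 CPM in MI libraries of day 4 and 108, 120, 145, 105 and 87.3 CPM in sham libraries of day 4, against 108, 149, 123, 89.2 and 127 CPM in MI libraries of day 2 and 93.3, 114, 90.5, 85.7 and 79.9 CPM in sham libraries of day 2. All MI libraries of day 4 were at least 297 CPM and no other library exceeded 149 CPM. Its log2 difference was 1.10 (SE 0.2, edgeR adjusted p = 0.00237), beside 0.96 for C1qa and 0.91 for C1qc. The receptor C3ar1, which binds the complement fragment C3a, had a called effect of 4.32-fold at day 4 and 2.17-fold at day 2 (log2 difference 0.99, edgeR adjusted p = 0.0181; 0.0545 without sham day 2 replicate 2). These 4 of 20 complement and acute-phase genes were called higher and none lower, with a median log2 difference of 0.58. With 1 library left out 3 to 7 were called, the 7 without sham day 4 replicate 3, and without the 2 sham libraries holding lung transcripts the median was 1.08.

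Lysosomal genes had the highest share of higher calls of all lists. All 24 were tested, 13 were called higher and none lower, and all 24 had a positive difference, with a median of 0.72. The median MI effect was 0.90 at day 4, with 21 genes called higher (26.2% of all genes were), and 0.14 at day 2, with 9 called higher (21.1% of all genes) and 3 lower (21.3%). Among the called genes were the proteases Ctsa, Ctsb, Ctsc, Ctsd, Ctsk, Ctsl, Ctsz and Lgmn, the glycosidases Hexa and Gusb, the lysosomal lipase Lipa and the membrane protein Lamp1. Ctsl, the protease cathepsin L (ENSMUSG00000021477, chromosome 13, 64359337 to 64370890 in GRCm38), read 472, 391, 382, 469 and 450 CPM in MI libraries of day 4, 199, 208, 219, 181 and 193 CPM in sham libraries of day 4, 194, 296, 193, 170 and 204 CPM in MI libraries of day 2 and 217, 250, 214, 201 and 208 CPM in sham libraries of day 2. MI and sham libraries were fully apart at day 4 and overlapped at day 2, where 4 of the 5 MI libraries were at or below 204 CPM and replicate 2 was the highest of all 10. The log2 difference was 1.09 (SE 0.16, edgeR adjusted p = 0.00035). An unnamed annotated gene shares exons with Ctsl on the same strand, as others do with Col3a1 and Spp1. Ctsk, cathepsin K, a collagen-cleaving protease, had the highest difference of the list, 1.34 (SE 0.29, edgeR adjusted p = 0.0069), at 41.4 ± 7.87 CPM in MI libraries of day 4, 13.7 ± 4.96 in sham libraries of day 4, 9.66 ± 2.64 in MI libraries of day 2 and 8.47 ± 1.95 in sham libraries of day 2 (± SD, n = 5). The most lysosomal calls, 19, came with 1 library left out, and the fewest, 9, without MI day 2 replicate 4.

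Transcription of many lysosomal genes is driven by TFEB and its relatives, which bind the letters CACGTG, best within TCACGTG. The 250 bases before the start were searched on both strands for both motifs in 11 of the 13 called genes with an entry in the RefSeq promoter table of GRCm38.p6; the longer motif contains the shorter. CACGTG was found in 3 of these 11 (27.3%; Ctsd, Ctsl and Lamp1), in 4 of the 19 tested genes of the list with an entry (21.1%), in 8.29% of the 11066 tested genes with an entry and in 6.59% of all 18851 entries. TCACGTG was found in 2 of the 11 (18.2%) and 3 of the 19 (15.8%), against 4.77% of the tested genes and 3.59% of all entries. The windows of Ctsd, the protease cathepsin D (chr7:142387828-142388077, minus strand), and Lamp1, a major protein of the lysosome membrane (chr8:13158911-13159160, plus strand), are shown because they hold the longer motif, with the matches in capitals, 5′ to 3′ on the gene's strand.
Ctsd: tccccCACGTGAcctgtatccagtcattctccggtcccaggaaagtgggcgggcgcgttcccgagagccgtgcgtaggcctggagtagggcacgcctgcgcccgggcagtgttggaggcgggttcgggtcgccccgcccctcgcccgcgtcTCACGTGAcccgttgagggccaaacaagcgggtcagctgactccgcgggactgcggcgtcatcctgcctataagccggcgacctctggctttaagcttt
Lamp1: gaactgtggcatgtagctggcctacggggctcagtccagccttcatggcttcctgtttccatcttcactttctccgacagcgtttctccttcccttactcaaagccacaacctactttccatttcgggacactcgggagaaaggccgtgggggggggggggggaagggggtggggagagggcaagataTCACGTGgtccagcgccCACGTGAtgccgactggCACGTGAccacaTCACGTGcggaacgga
Ctsd holds CACGTG at 2 positions, both within TCACGTG, and Lamp1 at 4. The log2 difference was 0.73 in Ctsd (edgeR adjusted p = 0.0015) and 0.36 in Lamp1 (edgeR adjusted p = 0.0273), whose log2 MI effect was 0.08 at day 4 and -0.29 at day 2. A match says nothing on binding in these hearts.

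Neutrophil genes, with 1 of 18 called, and inflammatory cytokines and chemokines, with 1 of 26, were near the share over all genes tested (4.8%). Of 18 neutrophil genes 1 was called lower, and none was called higher, with a median log2 difference of -0.57 and median MI effects of 2.95 at day 4 and 3.18 at day 2. Without the 2 sham libraries holding lung transcripts none was called and the median difference was -0.14. S100a8, a subunit of the neutrophil protein calprotectin, read 28.3, 4.04, 10.8, 59.7 and 8.84 CPM in MI libraries of day 4, 1.38, 1.83, 1.65, 1.51 and 0.777 CPM in sham libraries of day 4, 226, 53.6, 104, 76.3 and 62.5 CPM in MI libraries of day 2 and 0.977, 3.42, 4.18, 2.94 and 4.23 CPM in sham libraries of day 2. MI libraries lay above sham libraries at both days, but within the MI group of day 4 the highest library was 59.7 and the lowest 4.04 CPM. Its log2 difference was -1.16 with a standard error of 1.39 (edgeR adjusted p = 0.69).

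Of 26 inflammatory cytokines and chemokines, 1 was called. Cxcl16, a chemokine and scavenger receptor of macrophages, had an MI effect of 2.66-fold at day 4 and 1.32-fold at day 2 (log2 difference 1.01, SE 0.2, edgeR adjusted p = 0.00382); its exons overlap those of Zmynd15 on the other strand. The cytokines Il1b, Il6 and the monocyte-attracting chemokine Ccl2 were called higher in MI libraries at both days, with log2 differences of 1.02 (SE 0.99), 1.61 (SE 0.76) and 0.94 (SE 0.42) that were not called. Among monocyte-derived cell genes all 15 were called higher in MI libraries at each day (26.2% of all genes at day 4 and 21.1% at day 2). None was called for the difference by edgeR, and 3 had an unadjusted p under 0.05. DESeq2 called 1 higher and 1 lower, and limma with voom 1 higher. The arginine-degrading enzyme Arg1 averaged 148 ± 77.4 CPM in MI libraries of day 4, 18 ± 10.9 in sham libraries of day 4, 127 ± 14.9 in MI libraries of day 2 and 11.9 ± 4.76 in sham libraries of day 2 (± SD, n = 5), with a log2 difference of -0.43 (SE 0.56, edgeR adjusted p = 0.721).

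Genes of cell division with a called difference had a higher MI effect at day 4. All 26 mitosis genes had a positive difference, with a median of 1.18, and 7 were called higher: Hmmr, Tpx2, Kif20a, Aurka, Prc1, Anln and Foxm1. Of 26 DNA replication genes, all with a positive difference and a median of 0.63, 3 were called: Pola1, Tyms and Chaf1a. Without MI day 2 replicate 2, 10 of the replication genes were called. In MI libraries 25 of the 26 mitosis and all 26 replication genes were called higher at day 4, against 24 and 20 at day 2. Of all genes tested 26.2% were called higher at day 4 and 21.1% at day 2. On the mitosis list 1 gene was called lower at day 2. Hmmr, a spindle and hyaluronan-binding protein (ENSMUSG00000020330, chromosome 11, 40701395 to 40733422 in GRCm38), read 19.1, 20.6, 14.2, 16.9 and 20 CPM in MI libraries of day 4, 2.22, 1.93, 2.94, 1.51 and 1.11 CPM in sham libraries of day 4, 8.33, 12.9, 5.62, 4.76 and 5.4 CPM in MI libraries of day 2 and 3.91, 3.35, 2.14, 3.17 and 1.15 CPM in sham libraries of day 2. MI and sham libraries were apart at both days, and every MI library of day 4 was above every MI library of day 2. The effect was 8.22-fold at day 4 and 2.48-fold at day 2, a log2 difference of 1.73 (SE 0.38, edgeR adjusted p = 0.00832).

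Pola1, the catalytic subunit of DNA polymerase alpha, gained its effect. It averaged 16.3 ± 3.48 CPM in MI libraries of day 4 against 8.65 ± 1.01 CPM in sham libraries of day 4, 8.55 ± 1.74 CPM in MI libraries of day 2 and 8.82 ± 0.914 CPM in sham libraries of day 2 (± SD, n = 5), a log2 difference of 0.89 (SE 0.19, edgeR adjusted p = 0.00573). Chaf1a, a subunit of the factor that places histones on new DNA, grew by 0.97 (edgeR adjusted p = 0.0108); its exons overlap those of Ubxn6 on the other strand. The proliferation marker Mki67 had a log2 difference of 1.27 (SE 0.43, edgeR adjusted p = 0.0814), topoisomerase Top2a of 1.30 (0.0826) and cyclin Ccnb1 of 1.26 (0.144), all short of the threshold. Pseudogenes near-identical to Ccnb1 may share its reads, and exons of Kif20a overlap those of Cdc23 on the other strand. Without the 2 sham libraries holding lung transcripts, Mki67 was called at 1.58 (edgeR adjusted p = 0.0298). The count of mitosis calls moved with single libraries, to 17 without MI day 2 replicate 2 and to 3 without sham day 2 replicate 2, where Tpx2 and Kif20a were lost (edgeR adjusted p = 0.0575 and 0.0591). Kif20a was also lost when MI day 4 replicate 5 or sham day 4 replicate 2 or 4 was left out. Tyms, which makes thymidylate, was lost in 12 of the 20 fits that left out 1 library each (edgeR adjusted p up to 0.0841).

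Promoters of mitosis genes commonly hold CCAAT boxes, bound by NF-Y, and those of replication genes E2F sites such as GCGGGAA; many late cell-cycle genes also carry TTTGAA, the core of the element bound by the MuvB complex. In the same windows and on both strands, CCAAT was found in 5 of the 7 called mitosis and replication genes with an entry (71.4%), in 33 of the 41 tested genes of these lists (80.5%), in 36.0% of all tested genes with an entry and in 35.5% of the whole table. GCGGGAA was found in 2 of the 7 (28.6%), 17.1% of the 41 and 6.9% of all tested genes with an entry, and in 4.89% of the table. TTTGAA was found in none of the 7, in 22% of the 41 and in 10.7% of all tested genes with an entry. The windows of Hmmr (chr11:40733438-40733687, minus strand) and Chaf1a (chr17:56040166-56040415, plus strand) are shown, the first because it holds the most CCAAT boxes of the 7 and the second as 1 of the 2 that hold both motifs, with matches of either strand in capitals.
Hmmr: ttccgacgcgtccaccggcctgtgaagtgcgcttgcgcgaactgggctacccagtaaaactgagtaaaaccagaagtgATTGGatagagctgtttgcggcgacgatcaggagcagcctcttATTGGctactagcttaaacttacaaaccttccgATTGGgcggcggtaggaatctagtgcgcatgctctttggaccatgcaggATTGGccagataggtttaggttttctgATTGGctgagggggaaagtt
Chaf1a: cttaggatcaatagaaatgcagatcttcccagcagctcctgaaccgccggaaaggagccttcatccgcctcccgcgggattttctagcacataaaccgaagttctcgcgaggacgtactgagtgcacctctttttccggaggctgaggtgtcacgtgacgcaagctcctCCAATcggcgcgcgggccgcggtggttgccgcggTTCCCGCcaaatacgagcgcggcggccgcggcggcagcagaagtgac
Hmmr holds 5 CCAAT boxes, all on the opposite strand and read here as ATTGG, the nearest 15 bases before the start. Chaf1a holds 1 CCAAT box and, 40 bases before the start, 1 GCGGGAA on the opposite strand.

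Most called collagen genes gained their MI effect at day 4. Of 19 tested, 9 were called higher and none lower, all 19 differences were positive, and the median difference was 1.23. At day 4 17 were called higher in MI libraries (26.2% of all genes were), with a median effect of 1.33. At day 2 3 were (21.1% of all genes), with a median of 0.03. The called genes were the chains of fibrillar collagens I, III and V (Col1a1, Col1a2, Col3a1, Col5a1), of the network-forming collagen VIII (Col8a1, Col8a2) and Col14a1, Col15a1 and Col16a1. Col1a1 (ENSMUSG00000001506, chromosome 11, 94936224 to 94953042 in GRCm38) read 2331, 1811, 2766, 1579 and 3474 CPM in MI libraries of day 4, 749, 560, 1170, 501 and 424 CPM in sham libraries of day 4, 489, 468, 331, 315 and 258 CPM in MI libraries of day 2 and 427, 463, 204, 292 and 174 CPM in sham libraries of day 2. At day 4 every MI library exceeded every sham library, and at day 2 the groups overlapped. Sham libraries also differed by day, with a log2 change from day 2 to day 4 of 2.59 in MI and 1.09 in sham libraries. Its MI effect differed between the days by 1.5 as log2 (SE 0.44, edgeR adjusted p = 0.0455).

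These collagen calls lay close to the threshold. Col1a1 was lost in 13, Col3a1 in 12 and Col1a2 in 9 of the 20 fits that left out 1 library each, with edgeR adjusted p up to 0.105, 0.095 and 0.0747 and log2 differences of at least 1.31, 1.18 and 1.31. The number of collagens called was 2 without MI day 2 replicate 4, 14 at the most with another library left out, and 11 without the 2 sham libraries holding lung transcripts. Col8a2 and Col14a1 kept their calls in each of these fits. Col8a2 averaged 13 ± 4.45 CPM in MI libraries of day 4, 4.07 ± 1.61 in sham libraries of day 4, 0.993 ± 0.225 in MI libraries of day 2 and 1.16 ± 0.257 in sham libraries of day 2 (± SD, n = 5; log2 difference 1.88, SE 0.44, edgeR adjusted p = 0.0114). Col14a1, which sits on the surface of collagen fibrils, had an MI effect of 0.92 at day 4 and -0.64 at day 2.

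**Figure D4:**
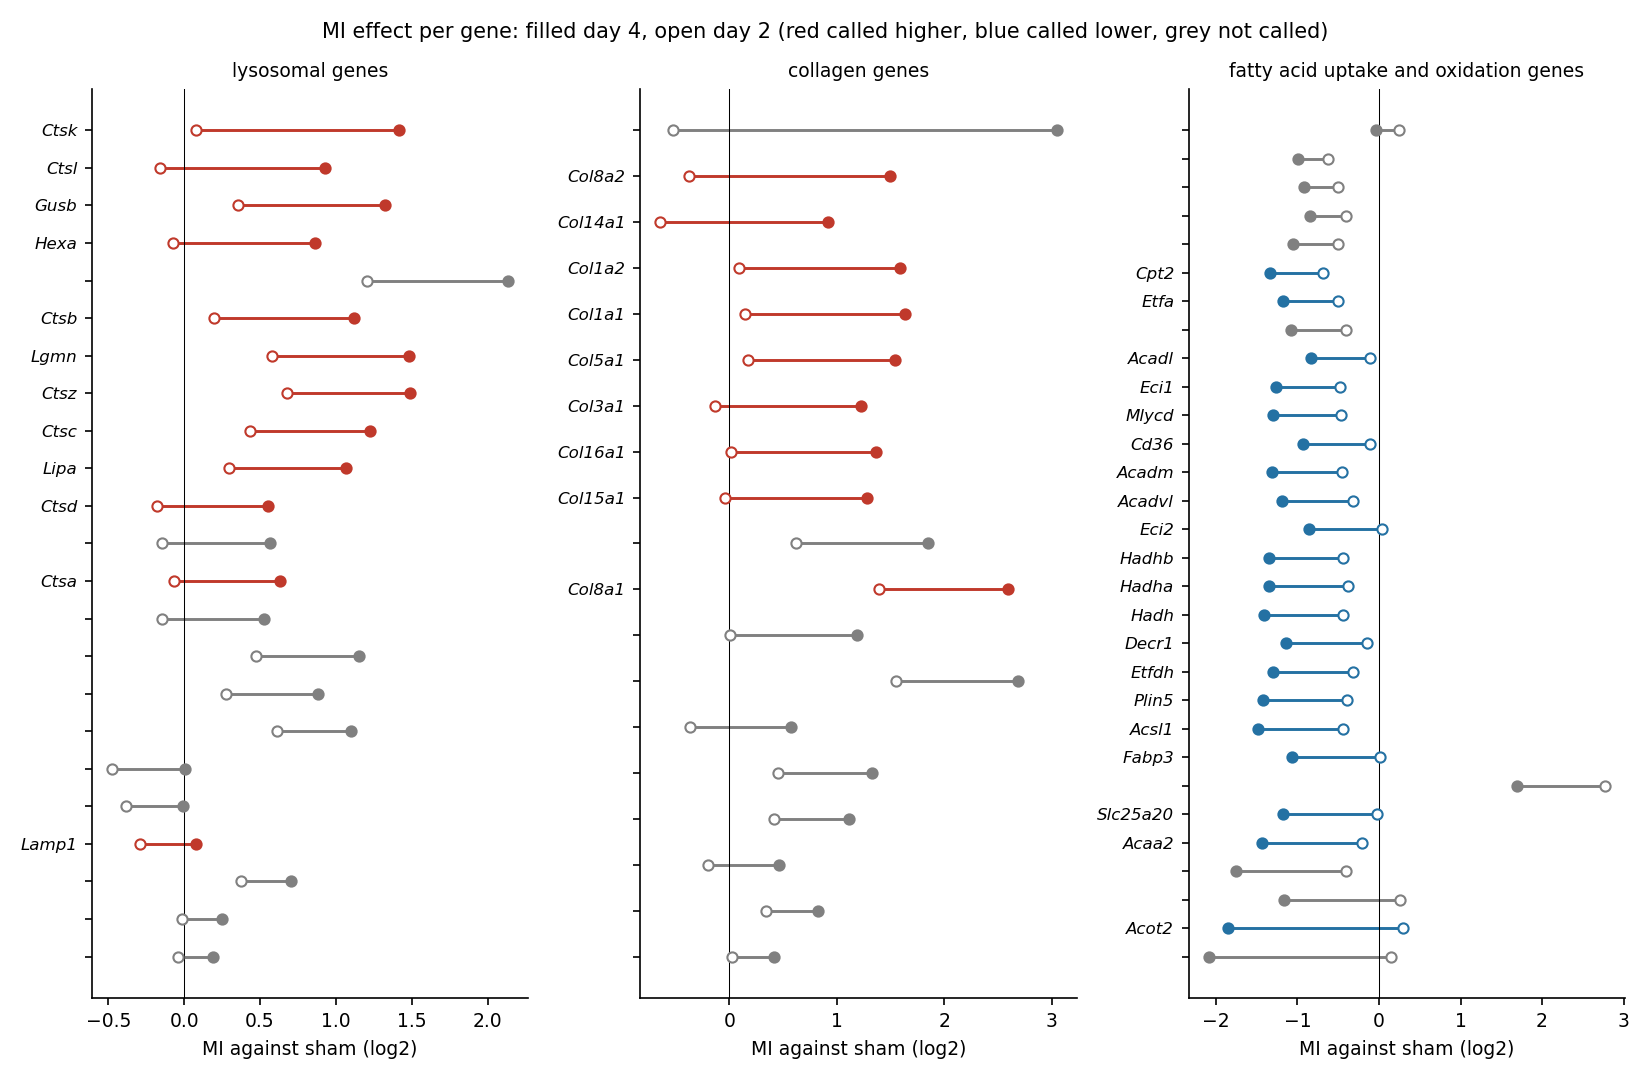
Log2 MI effect at day 4 (filled) and day 2 (open) for lysosomal, collagen and fatty acid genes, with called differences in colour and their genes named, and genes not called in grey without a name. All lysosomal and collagen genes drawn lie further right at day 4, and all fatty acid genes further left.

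Of 24 genes that fold, cleave and crosslink collagen, 7 were called higher and 1 lower. P3h3, of the prolyl hydroxylase family, had a log2 difference of 0.98 (SE 0.2, edgeR adjusted p = 0.00374). The crosslinking oxidase Loxl3 had one of 1.31 (SE 0.34, edgeR adjusted p = 0.025), lost when any 1 of 6 libraries was left out (edgeR adjusted p up to 0.0721). The exons of Loxl3 overlap those of Htra2 on the other strand. Adamts2, which removes the propeptide of procollagens, reached 1.0 (edgeR adjusted p = 0.0307; lost in 11 of the 20 fits with 1 library left out, up to 0.0802). The prolyl hydroxylase P3h1 (0.63), the lysyl hydroxylases Plod1 (0.55) and Plod3 (0.65) and Pcolce (0.86), which enhances procollagen cleavage, were also called higher. Higher calls on this list ranged from 1 without MI day 4 replicate 5 to 9 with another library left out. They numbered 5 without the 2 sham libraries holding lung transcripts. The called lower gene was P3h4, a partner of lysyl hydroxylation, at -0.70 (edgeR adjusted p = 0.00351). Lox, the lysyl oxidase itself, was called higher in MI libraries at both days, 6.36-fold at day 4 and 3.60-fold at day 2, and its difference was not called (0.82, SE 0.36, edgeR adjusted p = 0.194).

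Activated fibroblast and matricellular genes with a called difference were higher at day 4. Of 29 tested, 9 were called higher and none lower, with a median difference of 0.83. The count of higher calls fell to 6 without the 2 sham libraries holding lung transcripts. Those called at day 4 alone were Sfrp1, a secreted Wnt antagonist, Fap, the membrane protease that marks activated fibroblasts, Thbs4, a matricellular thrombospondin, and the microfibril protein Mfap4. Sfrp1 averaged 141 ± 39 CPM in MI libraries of day 4, 47.1 ± 9.79 in sham libraries of day 4, 38.8 ± 10.7 in MI libraries of day 2 and 36.5 ± 6.8 in sham libraries of day 2 (± SD, n = 5). Its log2 difference was 1.42 (SE 0.27, edgeR adjusted p = 0.00286), beside 1.41 for Fap (SE 0.28, edgeR adjusted p = 0.00351). Thbs4, 4.71-fold at day 4 and 1.54-fold at day 2, reached 1.61 (edgeR adjusted p = 0.0176), and 1.33 without the 2 sham libraries holding lung transcripts (edgeR adjusted p = 0.0567). Sparc, Meox1, Ddah1 and Fstl1 had called effects at day 2 that grew. Periostin (Postn), tenascin C (Tnc) and Cthrc1, secreted by activated fibroblasts, were called higher in MI libraries at both days and had log2 differences of 0.98 (SE 0.38), 1.16 (SE 0.61) and 0.79 (SE 0.38) that were not called. Smooth muscle actin Acta2, a myofibroblast and smooth muscle gene, was called at day 4 (1.48-fold) and not at day 2 (0.932-fold), with a difference of 0.67 (SE 0.31, edgeR adjusted p = 0.222).

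Among 22 proteoglycan and elastic fibre genes 3 were called higher, and between 2 and 8 with 1 library left out. The small proteoglycans Bgn and Aspn gained their effect, with log2 differences of 0.99 (SE 0.23, edgeR adjusted p = 0.0115) and 1.15 (SE 0.25, edgeR adjusted p = 0.0069); exons of Aspn overlap those of Cenpp on the other strand. The elastic fibre protein Emilin1 grew by 0.93 (edgeR adjusted p = 0.0331), a call lost in 10 of the 20 fits with 1 library left out (up to 0.0872) and without the 2 sham libraries holding lung transcripts (0.89, edgeR adjusted p = 0.063). Of 17 resting fibroblast genes 1 was called higher, and up to 3 with 1 library left out, against 4.8% of all genes tested. The 1 was Adamtsl2, a microfibril-binding glycoprotein (1.28, edgeR adjusted p = 0.013). Of 25 TGF-beta and activin genes 2 were called higher, again against 4.8% of all genes tested. These were the receptor Tgfbr1 (0.44, edgeR adjusted p = 0.0452) and the Smad repressor Skil (0.63, edgeR adjusted p = 0.0317). Leaving out 1 library ended the call of Tgfbr1 in 16 and of Skil in 11 of 20 fits (up to 0.116 and 0.0765), and without the 2 sham libraries holding lung transcripts the adjusted p were 0.0806 and 0.0823.

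Of 29 matrix proteases and inhibitors 5 were called higher, and 2 without MI day 2 replicate 4. Adamts8, a secreted metalloprotease (ENSMUSG00000031994, chromosome 9, 30942562 to 30963838 in GRCm38), read 30.5, 7.43, 55.6, 13.5 and 31.6 CPM in MI libraries of day 4, 6.14, 3.22, 7.18, 2.11 and 1.55 CPM in sham libraries of day 4, 7.1, 8.34, 8.7, 10.2 and 5.49 CPM in MI libraries of day 2 and 23.1, 5.4, 7.6, 4.87 and 8.37 CPM in sham libraries of day 2. All MI libraries of day 4 were above all sham libraries of day 4, although they spread from 7.43 to 55.6 CPM, and at day 2 sham replicate 1 was the highest. Between the days the effect differed by 3.0 as log2 (SE 0.65, edgeR adjusted p = 0.00856). Mmp2, a gelatinase, lost a negative MI effect, 1.14-fold at day 4 and 0.555-fold at day 2 (log2 difference 1.04, edgeR adjusted p = 0.034); the call was lost in 13 of the 20 fits with 1 library left out (up to 0.0896). Its inhibitor Timp2 behaved alike, with effects of 0.20 at day 4 and -0.48 at day 2 (edgeR adjusted p = 0.0229). Timp1, the injury-induced inhibitor, was called higher at both days, 7.81-fold at day 4 and 5.90-fold at day 2, with a difference of 0.40 (SE 0.31, edgeR adjusted p = 0.486).

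Growth factor ligands gave called differences in both directions, 3 higher and 3 lower of 26. Lower calls fell to 1 without MI day 2 replicate 4 and in 6 other fits with 1 library left out, and higher calls ranged between 2 and 5, the 5 without sham day 4 replicate 3. The heparin-binding factors pleiotrophin (Ptn) and midkine (Mdk) are close relatives, and both were higher. Ptn (ENSMUSG00000029838, chromosome 6, 36714929 to 36810220 in GRCm38) read 28.6, 31.7, 25.3, 23.3 and 40.8 CPM in MI libraries of day 4, 6.67, 5.37, 7.18, 6.43 and 7.33 CPM in sham libraries of day 4, 4.63, 4.37, 1.91, 2.35 and 2.42 CPM in MI libraries of day 2 and 3.73, 3.96, 2.65, 3.79 and 2.29 CPM in sham libraries of day 2. MI libraries of day 4 lay above all others, and at day 2 MI and sham libraries overlapped. Its log2 difference was 2.18 (SE 0.33, edgeR adjusted p = 0.000447). Mdk read 10.2, 8.37, 7.81, 10.5 and 11.8 CPM in MI libraries of day 4, 2.33, 2.79, 4.95, 2.31 and 3.44 CPM in sham libraries of day 4, 2.06, 2.18, 1.17, 1.07 and 1.3 CPM in MI libraries of day 2 and 2.49, 3.04, 1.2, 2.09 and 2.64 CPM in sham libraries of day 2. It was called higher in MI libraries at day 4 (2.72-fold) and lower at day 2 (0.627-fold), where the groups overlapped, a log2 difference of 2.12 (SE 0.33, edgeR adjusted p = 0.000485). Hgf, the hepatocyte growth factor, gained an effect (1.35, edgeR adjusted p = 0.0337).

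The lower ligands were Fgf16, Fgf1 and the EGF-family ligand Hbegf. Fgf16, a fibroblast growth factor made by cardiomyocytes (ENSMUSG00000031230, chromosome X, 105764279 to 105774939 in GRCm38), read 15.8, 15.3, 14.8, 12.5 and 16.1 CPM in MI libraries of day 4, 20, 33.6, 31.6, 30.3 and 29 CPM in sham libraries of day 4, 24.8, 20.9, 22.8, 22.4 and 22.4 CPM in MI libraries of day 2 and 16.7, 17.3, 17.2, 17.2 and 20.4 CPM in sham libraries of day 2. MI lay below sham in every library of day 4 and above it in every library of day 2. The effect was called at day 4 alone (0.452-fold, against 1.18-fold at day 2), with a log2 difference of -1.38 (SE 0.2, edgeR adjusted p = 0.000171) and changes from day 2 to day 4 of -0.70 in MI and 0.68 in sham libraries. Hbegf stayed higher in MI libraries with a smaller effect, 1.41 at day 4 and 2.18 at day 2 as log2 (edgeR adjusted p = 0.0486).

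**Figure D5:**
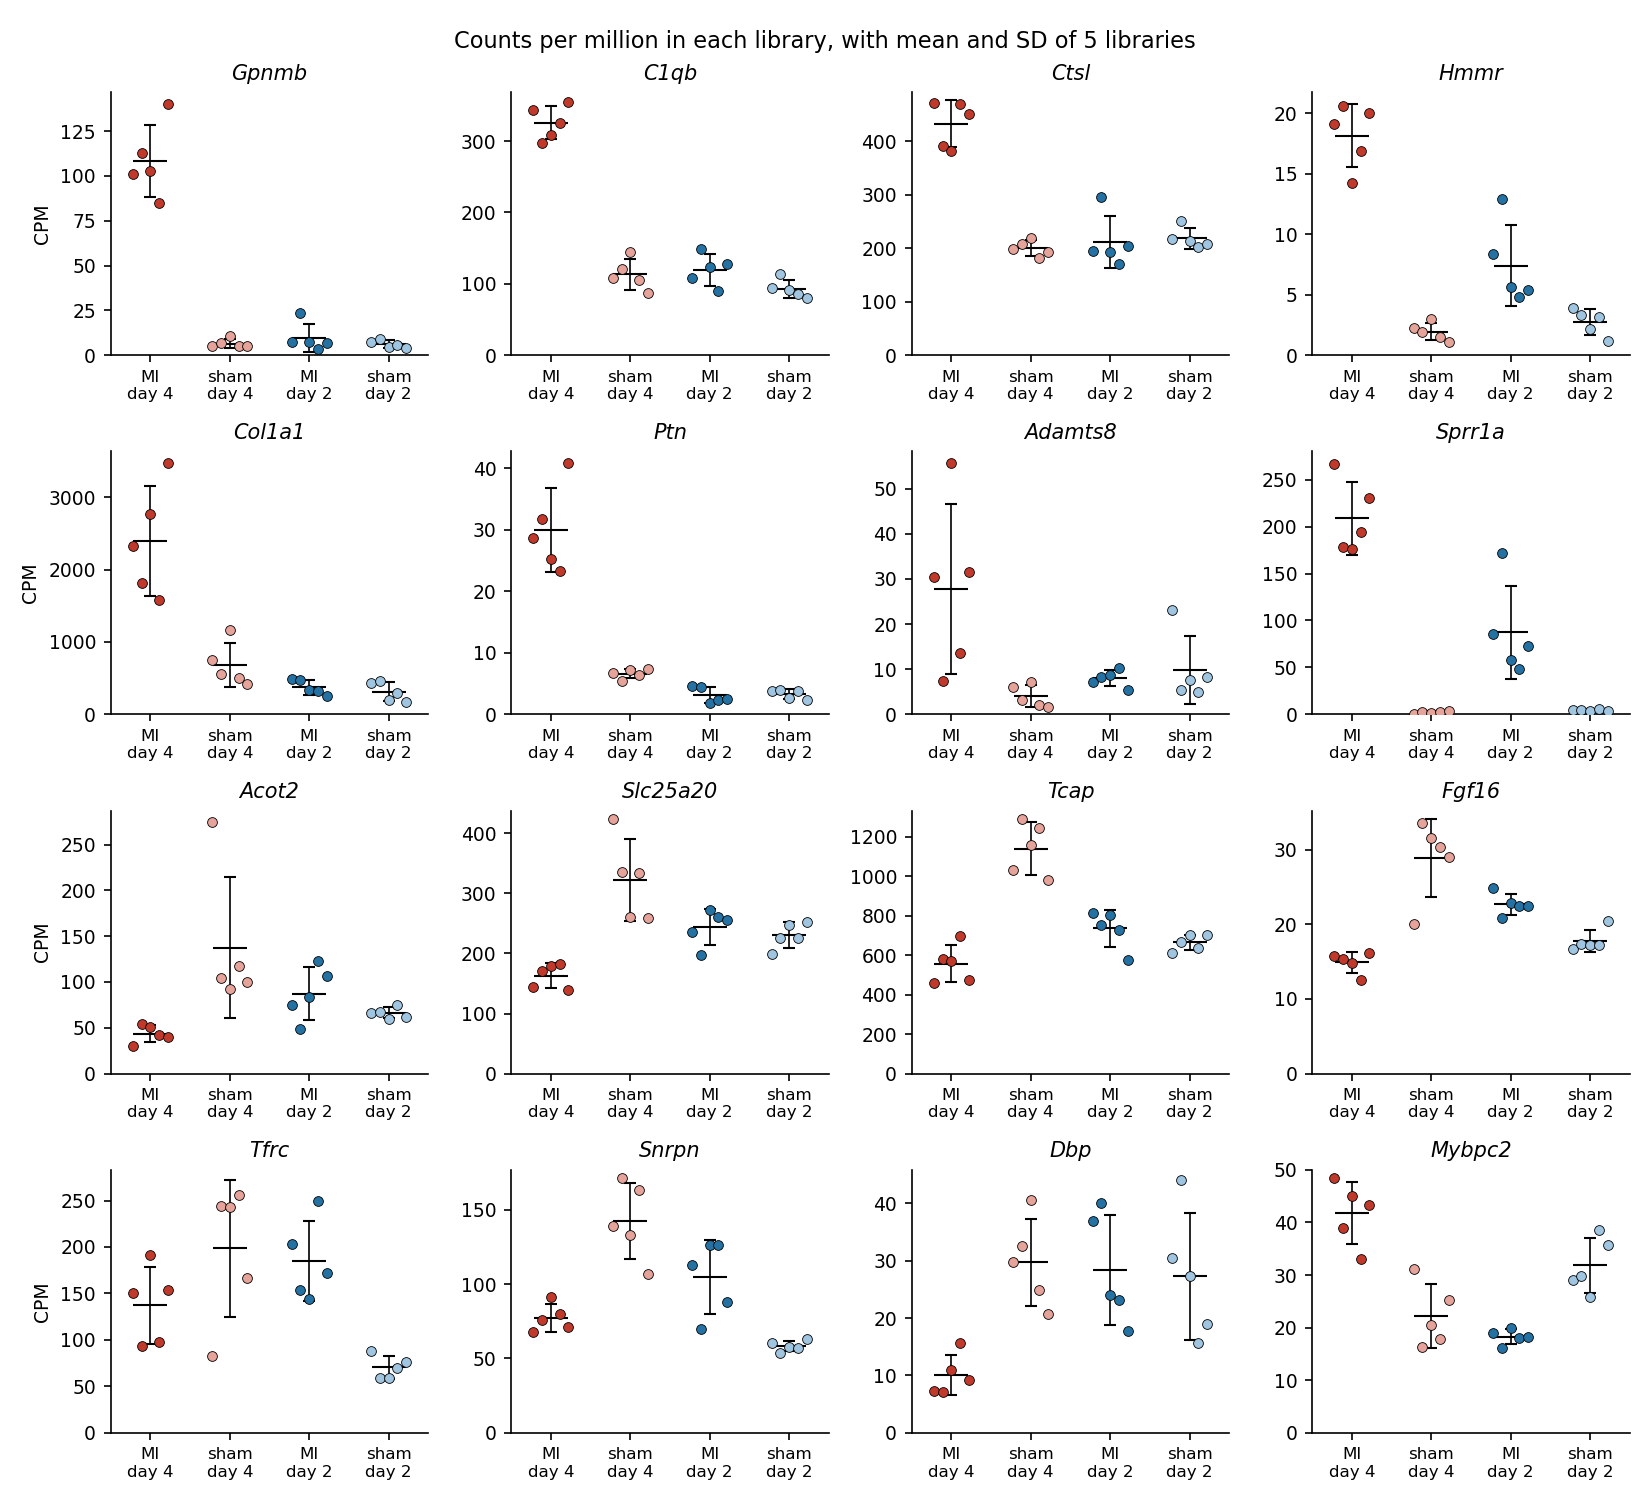
CPM of 16 genes in each library, in the order MI day 4, sham day 4, MI day 2 and sham day 2, with the mean and SD of the 5 libraries of a group. Gpnmb, C1qb, Ctsl and Ptn stand out in MI libraries of day 4, and Acot2, Slc25a20, Tcap and Fgf16 are lower in MI than in sham libraries at day 4 alone.

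Fatty acid uptake and oxidation genes held the highest share of calls of all 37 lists. Of 30 genes, 20 were called lower and none higher, all 30 differences were negative, and the median was -0.90. The median log2 MI effect was -1.19 at day 4, with 28 genes called lower (25.5% of all genes were). It was -0.38 at day 2, with 14 called lower (21.3% of all genes). From day 2 to day 4 the median change was -0.68 in MI and 0.26 in sham libraries, where day and library prefix cannot be told apart. The called genes came from many steps of the pathway, but not from all. Early steps were the uptake protein Cd36, the binding protein Fabp3, the activating enzyme Acsl1 and, of the carnitine shuttle, Slc25a20 and Cpt2. Then came the dehydrogenases (Acadl, Acadm, Acadvl) and the later steps of the spiral (Hadha, Hadhb, Hadh, Acaa2). The others were the auxiliary enzymes Eci1, Eci2 and Decr1, the electron acceptors Etfa and Etfdh, the thioesterase Acot2, malonyl-CoA decarboxylase (Mlycd) and the lipid droplet protein Plin5. Between 19 and 24 of the 30 were called with 1 library left out, and 24 without the 2 sham libraries holding lung transcripts.

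Slc25a20, which carries acylcarnitine into the mitochondrion (ENSMUSG00000032602, chromosome 9, 108662088 to 108684641 in GRCm38), read 144, 171, 179, 183 and 139 CPM in MI libraries of day 4, 424, 336, 261, 334 and 259 CPM in sham libraries of day 4, 235, 197, 273, 261 and 255 CPM in MI libraries of day 2 and 199, 226, 248, 226 and 253 CPM in sham libraries of day 2. All MI libraries of day 4 were below all sham libraries of day 4, and at day 2 the groups overlapped. The log2 difference was -1.16 (SE 0.19, edgeR adjusted p = 0.000701). Acot2, a mitochondrial acyl-CoA thioesterase (ENSMUSG00000021226, chromosome 12, 83987861 to 83993873 in GRCm38), read 30.3, 53.7, 50.6, 41.9 and 40.2 CPM in MI libraries of day 4, 275, 104, 92.3, 117 and 99.4 CPM in sham libraries of day 4, 74.8, 48.5, 83.8, 123 and 106 CPM in MI libraries of day 2 and 66.6, 67.6, 59.8, 75.2 and 61.9 CPM in sham libraries of day 2. Sham day 4 replicate 1 stood far above the other sham libraries; with it left out the fatty acid list kept 19 lower calls. Acot2 had a log2 difference of -2.15 (SE 0.37, edgeR adjusted p = 0.00175) and its cytosolic near-copy Acot1 one of -2.05 (SE 0.47, edgeR adjusted p = 0.0116). The transcripts are 95.1% identical over 58.0% of Acot2, so that reads may be shared between them.

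The muscle entry enzyme Cpt1b was not called for the difference (-0.68, SE 0.25, edgeR adjusted p = 0.116); the read-through transcript Gm44502 covers 94.8% of it. It averaged 25.6 ± 4.45 CPM in MI libraries of day 4, 47.6 ± 8.84 in sham libraries of day 4, 37.1 ± 8.3 in MI libraries of day 2 and 45.7 ± 6.25 in sham libraries of day 2 (± SD, n = 5). The MI effect of Hsdl2, a hydroxysteroid dehydrogenase-like protein, fell by 1.33 on the log2 scale (SE 0.19, edgeR adjusted p = 0.000219). Nuclear receptors of fat metabolism bind the letters AGGTCA. In the 250 bases before the start, AGGTCA was found in 4 of the 18 called fatty acid genes with an entry (22.2%; Cd36, Acadm, Acadvl and Plin5), in 28.0% of the 25 tested genes of the list with an entry, in 10.4% of all tested genes with an entry and in 12.6% of the table. The extended form AAGGTCA, which contains AGGTCA, was found in Acadm alone among the 18 (5.56%), against 2.75% of all tested genes with an entry. The window of Acadm, the medium-chain acyl-CoA dehydrogenase (chr3:153944644-153944893, minus strand), is shown for that match, in capitals and on the opposite strand, 242 bases before the start.
Acadm: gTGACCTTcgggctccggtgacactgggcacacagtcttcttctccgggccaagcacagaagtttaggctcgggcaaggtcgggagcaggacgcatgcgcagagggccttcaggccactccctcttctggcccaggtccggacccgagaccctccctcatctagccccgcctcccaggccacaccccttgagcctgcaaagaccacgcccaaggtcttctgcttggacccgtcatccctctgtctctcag
Acadm had log2 MI effects of -1.31 at day 4 and -0.45 at day 2, a difference of -0.86 (edgeR adjusted p = 0.00255).

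Further genes of sugar and lipid metabolism were called lower. Fbp2, the muscle fructose bisphosphatase, had 11.1 ± 2.13 CPM in MI libraries of day 4, 34.9 ± 14.8 in sham libraries of day 4, 34.6 ± 5.19 in MI libraries of day 2 and 33.3 ± 5.09 in sham libraries of day 2 (± SD, n = 5), a gained effect with a log2 difference of -1.78 (SE 0.29, edgeR adjusted p = 0.000699). Scd4, a fatty acid desaturase of the heart, read 7.96, 10.5, 14.3, 11.5 and 12.1 CPM in MI libraries of day 4, 47.7, 10.2, 8.48, 10.5 and 11.2 CPM in sham libraries of day 4, 74.4, 27.1, 52.6, 87.3 and 69.5 CPM in MI libraries of day 2 and 19.5, 15, 19.9, 17.7 and 15.4 CPM in sham libraries of day 2. Every MI library of day 2 exceeded every sham library of day 2, and at day 4 the groups overlapped, with sham replicate 1 alone far above. The effect was lost, 0.559-fold and not called at day 4, against 3.31-fold at day 2 (log2 difference -2.57, SE 0.53, edgeR adjusted p = 0.00595). Gpd1, glycerol-3-phosphate dehydrogenase, had a difference of -1.63 (edgeR adjusted p = 0.0282), and of -0.87 without the 2 sham libraries that also held fat transcripts (edgeR adjusted p = 0.118); it read 204 and 388 CPM in those libraries, against 80.6 to 125 CPM in the other sham libraries of day 4. Its call was also lost when any 1 of 5 libraries was left out (up to 0.0655).

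The other mitochondrial lists had smaller median differences. All 46 respiratory chain genes had a negative difference, with a median of -0.43, and 6 were called lower: Ndufa9, Ndufs3, Ndufv1, Uqcrc1, Uqcrfs1 and Atp5a1. At day 4 all 46 were called lower in MI libraries (25.5% of all genes were), with a median of -0.71. At day 2 26 were (21.3% of all genes), with a median of -0.32. Uqcrfs1, the iron-sulfur subunit of complex III, averaged 645 ± 54.9 CPM in MI libraries of day 4, 1012 ± 95.2 in sham libraries of day 4, 867 ± 32.7 in MI libraries of day 2 and 998 ± 37 in sham libraries of day 2 (± SD, n = 5), a difference of -0.53 (SE 0.13, edgeR adjusted p = 0.0187). Calls of the chain ranged from 1 without MI day 4 replicate 5 to 15 with another library left out, and were 13 without the 2 sham libraries holding lung transcripts. Ndufv1 of complex I and Atp5a1 of the ATP synthase were lost in 10 and 9 of the 20 fits with 1 library left out (up to 0.0809 and 0.0765). Exons of Atp5a1 overlap those of Haus1 on the other strand.

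All 37 genes of the TCA cycle and branched-chain amino acid breakdown also had a negative difference, with a median of -0.40, and 8 were called lower. Acat1, the mitochondrial acetoacetyl-CoA thiolase, had the largest, -0.69 (SE 0.15, edgeR adjusted p = 0.00596). At both days nearly the whole list was lower in MI libraries, 37 of 37 genes called at day 4 and 35 at day 2. Of all genes tested 25.5% were called lower at day 4 and 21.3% at day 2. Without MI day 2 replicate 4 3 genes of the list were called for the difference, and with another library left out up to 19. Of 17 mitochondrial regulators 1 was called, against 4.8% of all genes tested. This was Tfam, which packages and transcribes mitochondrial DNA (-0.47, edgeR adjusted p = 0.0371). The call of Tfam was lost in 10 of the 20 fits with 1 library left out (up to 0.0961). Ppargc1a, the coactivator of mitochondrial gene programmes, was lower in MI libraries at both days, 0.483-fold at day 4 and 0.555-fold at day 2, with a difference of -0.20 (SE 0.16, edgeR adjusted p = 0.515).

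Among 29 genes for contraction and the handling of calcium, 5 were called lower and none higher. They were the sarcomere genes Tcap, Tnnt2, Tpm1, Myl2 and Myl3, and the list median was -0.23. Without MI day 2 replicate 4 3 of the list were called lower, and with another library left out up to 8. Tcap, the titin cap protein of the Z-disc (ENSMUSG00000007877, chromosome 11, 98383811 to 98384953 in GRCm38), read 461, 581, 572, 697 and 476 CPM in MI libraries of day 4, 1030, 1292, 1157, 1243 and 979 CPM in sham libraries of day 4, 815, 752, 806, 727 and 577 CPM in MI libraries of day 2 and 613, 666, 703, 638 and 704 CPM in sham libraries of day 2. MI libraries of day 4 were all below sham libraries of day 4, and at day 2 the groups overlapped. Sham libraries of day 4 were the highest of the 4 groups, and the log2 change from day 2 to day 4 was -0.49 in MI and 0.76 in sham libraries. Tcap thus had a log2 difference of -1.25 (SE 0.17, edgeR adjusted p = 0.000121). For cardiac troponin T (Tnnt2; -0.78, SE 0.17, edgeR adjusted p = 0.00856) the day 2 to day 4 change was 0.77 in sham libraries, and that in MI libraries was close to 0.

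The ventricular light chain Myl2 had a difference of -0.74 (edgeR adjusted p = 0.0377), lost in 12 of the 20 fits with 1 library left out (up to 0.0912). Atp2a2, the calcium pump of the sarcoplasmic reticulum, and Myh6, the main adult myosin heavy chain, were called lower in MI libraries at both days. Their differences were 0.27 (SE 0.21, edgeR adjusted p = 0.492) and 0.32 (SE 0.29, edgeR adjusted p = 0.575), and Myh6 shares 91.8% identity with Myh7. Among 24 ion channel and connexin genes 2 were called lower and none higher, against 4.8% of all genes tested. These were the potassium channel subunits Kcnj5 (-0.68, SE 0.14, edgeR adjusted p = 0.00351) and Kcnj3 (-0.63, edgeR adjusted p = 0.0447), which together form the acetylcholine-gated channel. The call of Kcnj3 was lost in 15 of the 20 fits with 1 library left out (up to 0.0839) and without the 2 sham libraries holding lung transcripts (-0.60, edgeR adjusted p = 0.0804). Kcnj5 read 82.8 to 97.6 CPM in MI libraries of day 4, 149 to 169 CPM in sham libraries of day 4, 137 to 180 CPM in MI libraries of day 2 and 158 to 197 CPM in sham libraries of day 2.

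Cardiac stress genes went both ways, with 2 called higher and 2 lower of 22. Without MI day 4 replicate 1 or 5 or sham day 4 replicate 4, 1 was called higher. Sprr1a, an injury-induced protein of cardiomyocytes (ENSMUSG00000050359, chromosome 3, 92483952 to 92485895 in GRCm38), read 267, 178, 176, 194 and 230 CPM in MI libraries of day 4, 0.212, 2.9, 1.41, 2.21 and 3.77 CPM in sham libraries of day 4, 85.4, 172, 58.3, 48 and 72.4 CPM in MI libraries of day 2 and 4.71, 5.02, 3.59, 5.1 and 3.79 CPM in sham libraries of day 2. The groups were apart at both days, and every MI library of day 4 exceeded every MI library of day 2. The effect grew (log2 difference 2.27, SE 0.54, edgeR adjusted p = 0.0149), with changes from day 2 to day 4 of 1.17 in MI and -1.10 in sham libraries; sham day 4 replicate 1, at 0.212 CPM, lay under the 0.318 CPM that 3 counts are worth there. Nppa, atrial natriuretic peptide, averaged 2433 ± 660 CPM in MI libraries of day 4, 877 ± 293 in sham libraries of day 4, 2165 ± 259 in MI libraries of day 2 and 1614 ± 262 in sham libraries of day 2 (± SD, n = 5). Its level was about the same in MI libraries of both days (0.07) and lower in sham libraries of day 4 than of day 2 (-0.91), a log2 difference of 0.98 (edgeR adjusted p = 0.0238) that was lost when any 1 of 3 libraries was left out (up to 0.0595). The atrial markers, a list that includes Nppa, summed to 1520 to 4131 CPM in MI and 1208 to 2988 CPM in sham libraries of day 4. At day 2 they summed to 2940 to 4214 CPM in MI and 2617 to 3944 CPM in sham libraries. Nppa alone read 1286 to 2949 CPM in MI and 535 to 1284 CPM in sham libraries of day 4. It is a large part of each sum, so the sums cannot show atrial tissue apart from Nppa. The part of atrial tissue in the result was not tested.

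The 2 lower stress genes were the LIM-domain proteins Fhl1 and Csrp3. Fhl1 read 492, 432, 397, 408 and 512 CPM in MI libraries of day 4, 201, 197, 224, 176 and 166 CPM in sham libraries of day 4, 1043, 767, 885, 1862 and 1015 CPM in MI libraries of day 2 and 240, 208, 250, 253 and 220 CPM in sham libraries of day 2. MI was above sham in every library of both days, and highest at day 2. The effect shrank, 2.04-fold at day 4 against 4.43-fold at day 2 (log2 difference -1.11, SE 0.27, edgeR adjusted p = 0.0149). Csrp3 had a log2 MI effect of -0.04 at day 4 and 0.91 at day 2 (edgeR adjusted p = 0.00382). B-type natriuretic peptide (Nppb) and Gdf15, a stress cytokine, were called higher at both days, with differences of -0.38 (SE 0.36) and 0.57 (SE 0.45) that were not called.

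Of 17 NRF2, heme and iron genes 3 were called higher and 1 lower. Without MI day 2 replicate 4, MI day 4 replicate 1 or sham day 4 replicate 4 or 5, 1 was called higher, and with another library left out up to 4. Hmox1, which degrades heme, averaged 343 ± 60.9 CPM in MI libraries of day 4, 20.2 ± 2.68 in sham libraries of day 4, 158 ± 61.1 in MI libraries of day 2 and 33.7 ± 2.86 in sham libraries of day 2 (± SD, n = 5). Its effect grew (1.78, SE 0.48, edgeR adjusted p = 0.0294), a call lost when any 1 of 6 libraries was left out (up to 0.064) and without the 2 sham libraries holding lung transcripts (1.79, edgeR adjusted p = 0.0543). The ferritin light chain Ftl1 also grew (1.33, SE 0.26, edgeR adjusted p = 0.00338), but its near-copy Ftl1-ps1 is 99.6% identical over 94.0% of the transcript. The iron exporter Slc40a1 lost a negative effect, 0.09 at day 4 and -0.83 at day 2 (edgeR adjusted p = 0.0321).

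Tfrc, the transferrin receptor that brings iron into cells (ENSMUSG00000022797, chromosome 16, 32608920 to 32632794 in GRCm38), moved the other way. It read 150, 93.4, 191, 97.5 and 154 CPM in MI libraries of day 4, 82.1, 244, 243, 256 and 167 CPM in sham libraries of day 4, 203, 154, 144, 250 and 172 CPM in MI libraries of day 2 and 88.2, 59.2, 59.2, 69.8 and 76.7 CPM in sham libraries of day 2. At day 2 all MI libraries were above all sham libraries. At day 4 the groups overlapped through sham replicate 1, and each of the other 4 sham libraries was higher than at least 4 of the 5 MI libraries. The MI effect changed sign, 0.604-fold at day 4 and 2.43-fold at day 2, both called, with a log2 difference of -2.01 (SE 0.36, edgeR adjusted p = 0.00222). Red cell markers summed to 1095 to 2540 CPM in MI libraries of day 4, 726 to 3522 CPM in sham libraries of day 4, 297 to 1128 CPM in MI libraries of day 2 and 122 to 299 CPM in sham libraries of day 2, with the highest sum in sham day 4 replicate 1, and their part in the results of Tfrc, Hmox1 and Ftl1 was not tested.

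Of 18 clock genes 2 were called higher and 3 lower, and in 14 of the 20 fits with 1 library left out 1 was called higher. The transcriptional activator Arntl (Bmal1) lost a negative effect, 0.991-fold at day 4 and 0.475-fold at day 2 (log2 difference 1.06, SE 0.27, edgeR adjusted p = 0.019), and so did the repressor Cry1 (0.61, edgeR adjusted p = 0.0378). Dbp, an output gene that the activator drives, gained a negative effect. It read 7.24, 7.05, 11, 15.7 and 9.28 CPM in MI libraries of day 4, 29.7, 32.5, 40.6, 24.9 and 20.8 CPM in sham libraries of day 4, 37, 40.1, 24.1, 23.2 and 17.8 CPM in MI libraries of day 2 and 30.5, 44, 27.3, 15.7 and 19 CPM in sham libraries of day 2. At day 4 all MI libraries were below all sham libraries, and at day 2 they overlapped widely. Its log2 difference was -1.69 (SE 0.36, edgeR adjusted p = 0.00629), beside -0.80 for the repressor Nr1d2 (edgeR adjusted p = 0.00366) and -0.92 for Nr1d1 (edgeR adjusted p = 0.0273, lost when any 1 of 5 libraries was left out, up to 0.0612). Exons of Dbp overlap those of Sphk2 and exons of Nr1d1 those of Thra, on the other strand. The labels give no hour of sampling, and the part of the hour in these differences was not tested.

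The MI effect changed sign with a call at both days in 41 genes, 16 higher and 25 lower at day 4. Mybpc2, the fast skeletal myosin binding protein C (ENSMUSG00000038670, chromosome 7, 44501699 to 44524656 in GRCm38), read 48.4, 39, 45, 33.1 and 43.4 CPM in MI libraries of day 4, 31.1, 16.3, 20.5, 17.9 and 25.3 CPM in sham libraries of day 4, 19, 16.1, 19.9, 18.1 and 18.3 CPM in MI libraries of day 2 and 29.1, 29.9, 25.8, 38.6 and 35.7 CPM in sham libraries of day 2. MI libraries were above sham libraries at day 4 and below them at day 2, without overlap at either day. This gave a log2 difference of 1.63 (SE 0.27, edgeR adjusted p = 0.000833). Snrpn, a small ribonucleoprotein of the splicing machinery from an imprinted locus (ENSMUSG00000102252, chromosome 7, 59982495 to 60140219 in GRCm38), read 67.7, 75.5, 91.6, 79.7 and 70.9 CPM in MI libraries of day 4, 139, 171, 133, 163 and 107 CPM in sham libraries of day 4, 113, 69.7, 126, 126 and 88.1 CPM in MI libraries of day 2 and 60.1, 53.7, 57.9, 57.1 and 62.8 CPM in sham libraries of day 2. MI was below sham in every library of day 4 and above it in every library of day 2. The log2 difference was -1.81 (SE 0.25, edgeR adjusted p = 0.000171), with changes from day 2 to day 4 of -0.54 in MI and 1.27 in sham libraries; Snurf shares its exons on the same strand.

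The other named genes of this pattern that were higher at day 4 were Mdk, the secreted chaperone clusterin (Clu; 1.18, SE 0.16, edgeR adjusted p = 0.000121), the cholesterol exporter Abca1 (1.17, SE 0.26, edgeR adjusted p = 0.00856), the matricellular Thbs2 (1.28, SE 0.31, edgeR adjusted p = 0.0161), the mannosidase Man2b2 (0.93, SE 0.17, edgeR adjusted p = 0.00191) and the protease inhibitor Serpine2 (0.92, SE 0.21, edgeR adjusted p = 0.0116). Clu averaged 2105 ± 311 CPM in MI libraries of day 4, 1015 ± 181 in sham libraries of day 4, 1280 ± 176 in MI libraries of day 2 and 1469 ± 212 in sham libraries of day 2 (± SD, n = 5). Those lower at day 4 were the MAP kinase phosphatase Dusp10 (-1.27, SE 0.21, edgeR adjusted p = 0.000751), the transcription cofactor Lbh (-0.97, SE 0.16, edgeR adjusted p = 0.000597), choline kinase beta (Chkb; -0.90, SE 0.18, edgeR adjusted p = 0.00351) and Dnajb9. Dnajb9, a chaperone of the endoplasmic reticulum, was the 1 called gene of 25 on the ER list, against 4.8% of all genes tested. It had MI effects of 0.691-fold at day 4 and 1.37-fold at day 2 (-0.98, SE 0.18, edgeR adjusted p = 0.00226). The main ER chaperone Hspa5 was 1.11-fold and not called at day 4 and 1.66-fold and called at day 2, and its difference was not called (-0.58, SE 0.23, edgeR adjusted p = 0.143). The read-through transcript Gm44502 covers 81.2% of Chkb at 100% identity.

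Large shifts also fell outside the lists. Serpinb1a, an inhibitor of neutrophil proteases, averaged 129 ± 28.7 CPM in MI libraries of day 4, 10.8 ± 3 in sham libraries of day 4, 22.6 ± 6.18 in MI libraries of day 2 and 8.55 ± 1.25 in sham libraries of day 2 (± SD, n = 5). Its effect was 10.5-fold at day 4 and 2.43-fold at day 2 (log2 difference 2.12, SE 0.28, edgeR adjusted p = 0.000121). The kinesin Kif26b gained an effect of 3.55-fold (1.92, SE 0.3, edgeR adjusted p = 0.000597). The galactose-binding lectin Lgals4 read 4.8, 5.36, 5.74, 4.41 and 3.12 CPM in MI libraries of day 4, 22.9, 13.2, 15.4, 27.5 and 21.1 CPM in sham libraries of day 4, 7.92, 5.85, 9.65, 8.88 and 15.1 CPM in MI libraries of day 2 and 9.33, 12.6, 7.43, 6.8 and 12.1 CPM in sham libraries of day 2, so that MI lay below sham at day 4 alone (-2.16, SE 0.37, edgeR adjusted p = 0.00143). Impa2, an inositol monophosphatase, gained a negative effect of 0.416-fold (-1.64, SE 0.22, edgeR adjusted p = 0.000121); its exons overlap those of B430212C06Rik on the other strand.

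In 11 of the 37 lists no gene was called by edgeR. They were the monocyte-derived cell, MHC class II, lymphocyte, interferon-stimulated, serine and one-carbon, ribosome biogenesis, cholesterol synthesis, glycolysis and hypoxia, endothelial, pericyte and smooth muscle, and immediate-early genes, together 209 genes. An unadjusted p under 0.05 was reached by 35 of them (16.7%), against 20.4% of all genes tested. DESeq2 called 1 of them higher and 3 lower, and limma with voom 4 higher and 3 lower. List medians of the difference lay between -0.13 and 0.33 in 10 of these lists. Without the 2 sham libraries holding lung transcripts they lay between -0.19 and 0.47, with 0.41 for monocyte-derived cell, 0.47 for MHC class II and 0.46 for interferon-stimulated genes, against -0.04, 0.06 and 0.32 with them. The lymphocyte list, of which 8 of 17 genes passed the filter, had a median of -1.25, and of 0.72 without those libraries.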

How the data were processed

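RNA from mouse hearts was sequenced with a directional kit and 150-base paired reads, per the labels' protocols. The authors deposited whole-number counts per gene, made with bcl2fastq 2.20.0 and featureCounts on GRCm38, per the submitters' processing notes. For the aligner, the version of featureCounts and its use of strand, the answer is not given in the sources used here. Names came from a GENCODE annotation, which matched 97.5% of the 43629 gene identifiers. Libraries were grouped by operation and day from the labels. Members and gene lists were chosen with earlier results of these data known.

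Genes were kept by edgeR's filterByExpr (minimum count 10, minimum total 15), libraries were scaled by TMM, and edgeR 4.0.16 (R 4.3.3, limma 3.58.1) fitted a robust quasi-likelihood model over all 30 libraries of the series, so that the groups shared 1 estimate of the spread. The contrast was MI minus sham at day 4, minus MI minus sham at day 2. Tests were 2-sided, adjusted by Benjamini-Hochberg over all genes tested, with a threshold of 0.05. The SE is the log2 difference over the square root of the F statistic. CPM are counts over the library total. A limit of 3 counts stands for a gene without a count and covers counting error only. Library ratios are the log2 of each MI library over the mean of its day's sham libraries, with 0.5 CPM added. The genes named are a fixed panel, the 12 largest differences in each direction with a mean of at least 10 CPM, up to 3 genes of each list averaging 1 CPM or more, and up to 12 reversed genes with at least 10 CPM; further called members of a list are named as such. Some genes that the rule or the lists hold are not reported here. Near-copies were found with blastn 2.17.0 (identity of 90% or more over 50% or more of a transcript). Promoter sequences are from RefSeq, GRCm38.p6, 250 bases before the start, and the motifs of the lysosomal and fatty acid sets were chosen after the calls were seen. The fit was tested on simulated data. Alternatives were other scalings, filters and tools (DESeq2 1.42.0, limma with voom), the replicate number as a block, the 20 libraries alone and each library left out. Python 3.11.15 and matplotlib 3.10.9 were used for tables and figures.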

Additional observations from a re-analysis of the deposited data

Results flagged for a closer look

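The difference between the MI effects of day 4 and day 2 was itself called for 390 genes as higher and 356 as lower, and in 41 genes the effect was called at both days with opposite sign. Of these 41, the named genes had log2 differences of -2.01 in Tfrc, -1.81 in Snrpn, 1.63 in Mybpc2, 0.92 in Serpine2, 2.12 in Mdk, -0.98 in Dnajb9, 1.28 in Thbs2, -1.27 in Dusp10, 1.18 in Clu, 1.17 in Abca1, -0.97 in Lbh, 0.93 in Man2b2 and -0.90 in Chkb.

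In 24 of 444 groups of 5 libraries (5.41%), 1 library stood apart from the other 4 by Dixon's test, where chance flags about 1 in 20 groups. Among MI libraries of day 4 these were replicate 4 for Chil3 (86.6 CPM), replicate 2 for Nppa (1286 CPM) and replicate 3 for Gpd1 (150 CPM). Sham day 4 replicate 1 stood apart for Scd4 (47.7 CPM), Acot2 (275 CPM), Fbp2 (61.2 CPM), Thbs4 (20.9 CPM) and Aspn (69.3 CPM). Sham day 4 replicate 3, which holds lung and fat transcripts, did so for Mki67 (26.7 CPM), Tnc (25.6 CPM), C3ar1 (22.5 CPM), Chaf1a (6.59 CPM), Fap (7.3 CPM), Acat1 (678 CPM) and Abca1 (83.3 CPM). MI day 2 replicate 2 did so for Gpnmb (23.5 CPM), Fcrls (34.2 CPM), Cd68 (91 CPM), Ctsl (296 CPM) and Clu (1592 CPM), and MI day 2 replicate 4 for Fhl1 (1862 CPM). Among sham libraries of day 2 they were replicate 2 for Myh7 (1035 CPM), replicate 5 for Fgf16 (20.4 CPM) and replicate 1 for Adamts8 (23.1 CPM).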

How the results depend on the processing

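All 746 called genes kept their direction under every alternative in which they were tested, while the counts moved. With the 20 libraries alone 922 genes were called (704 of the 746 among them). Median-ratio scaling gave 796 (707 shared, 351 higher and 445 lower), and a filter at 1 CPM 811 (729 shared). Without the 2 sham libraries holding lung transcripts 920 were called, of which 596 were among the 746. DESeq2 called 1218 (743 shared), with 686 lower, 562 gained, 198 lost, 352 grown and 48 shrunken effects. Limma with voom called 1863 (990 higher, 873 lower; 741 shared), with 754 gained, 312 lost, 619 grown, 75 shrunken and 88 reversed effects and 248 list genes. Without a filter on low counts 475 were called (246 higher, 229 lower), with 64 lost, 116 grown, 11 shrunken and 18 reversed. A stricter test, edgeR's glmTreat, asked whether the difference exceeded 1.5-fold, which is no cutoff on the estimated fold. It called 19 genes (8 higher, 11 lower), with 14 gained, 2 lost, 2 grown, 0 shrunken and 0 reversed effects and 7 list genes. Of the called genes chosen for naming, 15 kept their call in this test and 70 did not, Gpnmb, Sprr1a and Lgals3 among the 70. For the MI effect the same test called 2279 genes at day 4 (1547 higher, 732 lower) and 1192 at day 2 (833 higher, 359 lower). Shrunken effects numbered 38 with the 20 libraries alone and 9 without the lung-bearing libraries.

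With 1 library left out, 416 (without MI day 2 replicate 4) to 1236 genes (without sham day 4 replicate 3) were called, 189 to 600 higher and 209 to 637 lower, with 213 to 594 gained, 42 to 201 lost, 98 to 393 grown, 9 to 65 shrunken and 26 to 79 reversed effects and 87 to 198 list genes. Counts beyond 1.5 times also came without MI day 2 replicate 2 (1171), MI day 4 replicates 1 (493) and 5 (448), sham day 2 replicate 2 (462) and sham day 4 replicates 2 (477) and 4 (421). The cause was not tested. Correlations of same-numbered MI and sham libraries were -0.183 to 0.23, and such values cannot settle whether replicate numbers pair the samples. With the replicate number as a block 727 genes were called (670 shared), and with a block within each day 656 (584 shared). The log2 difference of Myh7, -0.03 and not called, was 0.13 with limma voom, 0.03 with the replicate block and -0.31 to 0.2 with 1 library left out, above 0 in 10 of these 20 fits.

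At 8491949 to 14070017 counts a library, genes near the limit of 3 counts have poorly measured differences. Each group has 5 libraries.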
